A study of Homo sapiens with 6 samples.

Results

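RNA of 10 genes that make and restrain skin serine proteases was followed in HaCaT cells, a spontaneously immortalized human keratinocyte line. The genes were chosen by name: the tissue kallikreins KLK5, KLK6, KLK7, KLK8, KLK10 and KLK11, the transmembrane protease gene ST14 (matriptase), and the inhibitor genes SPINT1, SPINT2 and SPINK5. They are 10 of the 46287 rows of the deposited count table and 10 of the 12293 genes with enough counts to be tested. The study compared cells with a homozygous SDR42E1 knockout made by CRISPR/Cas9 (3 libraries) with wild-type cells (3 libraries). It asked how this short-chain dehydrogenase gene bears on the transcriptome in connection with vitamin D. The labels state no culture day shared by the groups. Both groups were monolayers in serum-containing medium, harvested before confluence, and the labels name no treatment. The labels call the libraries biological replicates, without saying whether these were separate cultures. They also do not say whether the knockout cells came from 1 clone or several, and they speak of RNA pools. The p-values therefore measure only the spread between these libraries.

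Kallikreins are secreted serine proteases, made as inactive precursors, whose genes stand side by side on chromosome 19. In the upper epidermis KLK5 and KLK7 cut the junctions that hold dead surface cells together, and KLK5 can activate itself and other kallikreins. SPINK5 encodes LEKTI, a secreted inhibitor of kallikreins that is lost in Netherton syndrome, a disease of skin peeling and inflammation. Matriptase works at the cell surface of living keratinocytes, upstream of the protease prostasin, and is held in check by the Kunitz-type inhibitors HAI-1 and HAI-2, encoded by SPINT1 and SPINT2.

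The libraries held 11504473 to 13454544 counts in knockout cells and 12094896 to 16928201 in control cells. RNA of SDR42E1 itself was lower in all knockout libraries but present, at 23.2, 20.1 and 20.7 CPM (reads of the gene scaled to a library of fixed size) in knockout cells, against 46.8, 47.6 and 48.8 CPM in control cells. A gene-level count cannot show the edit itself. All 12 keratinocyte markers examined averaged at least 1 CPM, with summed levels of 11650 to 12130 CPM in knockout cells and 9760 to 10400 CPM in control cells. Single markers moved in both directions. KRT5 averaged 1709 CPM in knockout cells against 2698 CPM in control cells, and KRT6A averaged 2680 CPM against 1120 CPM. Some listed markers of other skin cells were at 0 in every library. These were TYR of melanocytes, DCN and PDGFRA of fibroblasts, CD3E, CD79A and CD207 of immune cells, and ATOH1 of Merkel cells. Other members of these lists had counts, such as MITF of melanocytes, at 19.2 CPM in knockout cells and 21.3 CPM in control cells. COL3A1 of fibroblasts averaged 0.12 CPM in knockout cells and 2.4 CPM in control cells (log2 fold change -4.33, adjusted p = 1.01e-06 in edgeR). The summed levels of the fibroblast list were 1.12 to 2.13 CPM in knockout cells and 4.30 to 6.19 CPM in control cells, and those of the melanocyte list 19.5 to 23.7 CPM in knockout cells and 24.3 to 25.3 CPM in control cells. For the endothelial list they were 1.92 to 2.81 CPM in knockout cells and 3.65 to 4.28 CPM in control cells, and the part of these low levels in the results was not tested.

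Of the 6 kallikreins, 4 fell in knockout cells and 2 did not pass the test, and ST14 and SPINT1 rose by small amounts. KLK6 fell the most, to 0.371 of its control level, whereas SPINT2 and SPINK5 did not pass. In all, 6 of the 10 genes passed edgeR's quasi-likelihood test at an adjusted p under 0.05, where 50.4% of all tested genes did. The count of 6 is therefore near the background of this comparison, in which small differences passed widely. In single directions, 4 of 10 were lower and 2 of 10 higher, where 25.8% and 24.6% of all tested genes were. The libraries of both groups did not overlap in 5 of the 10 genes, where 56.5% of all tested genes did not overlap. The median log2 fold change was 0.02 over the 10 genes and -0.31 over the 6 kallikreins, against -0.004 over all tested genes. In these bulk libraries, fewer cells expressing a gene and less RNA per cell cannot be told apart.

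**Figure D1:**
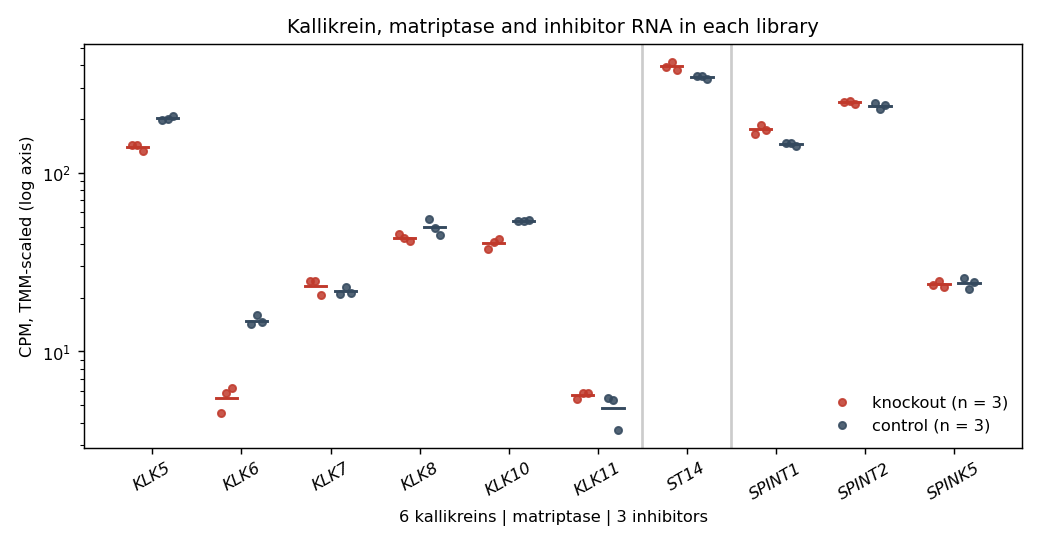
Level of each gene in each library, in TMM-scaled CPM on a log axis, with knockout cells left of control cells. Points are libraries and bars are means of 3. The knockout points of KLK5, KLK6 and KLK10 lie below all control points, and those of ST14 and SPINT1 lie above them.

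The sequences just upstream of KLK5, KLK6 and KLK7 are shown because these genes are neighbours on the same strand, and the first and second of them fell in knockout cells while KLK7 did not pass. Each is the 250 bases before the annotated start, 5′ to 3′ on the minus strand, from RefSeq on GRCh38.p14, for KLK5 at chr19:50953039-50953288, for KLK6 at chr19:50969592-50969841 and for KLK7 at chr19:50983918-50984167. Capitals mark matches on either strand to TATAA, the core of a TATA box, to GGGCGG, a GC box bound by SP1-type factors, to TGANTCA, the AP-1 site, or to AGGTCA, a core element of nuclear receptor sites.
KLK5: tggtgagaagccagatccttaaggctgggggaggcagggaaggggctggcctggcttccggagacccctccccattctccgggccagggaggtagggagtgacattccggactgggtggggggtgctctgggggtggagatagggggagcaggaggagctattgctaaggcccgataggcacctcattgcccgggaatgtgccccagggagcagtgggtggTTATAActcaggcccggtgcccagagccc
KLK6: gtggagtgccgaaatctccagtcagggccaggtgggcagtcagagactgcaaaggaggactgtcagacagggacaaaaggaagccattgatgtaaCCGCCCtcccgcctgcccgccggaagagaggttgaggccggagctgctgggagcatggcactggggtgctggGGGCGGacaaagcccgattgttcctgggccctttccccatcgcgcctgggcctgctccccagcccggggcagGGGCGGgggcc
KLK7: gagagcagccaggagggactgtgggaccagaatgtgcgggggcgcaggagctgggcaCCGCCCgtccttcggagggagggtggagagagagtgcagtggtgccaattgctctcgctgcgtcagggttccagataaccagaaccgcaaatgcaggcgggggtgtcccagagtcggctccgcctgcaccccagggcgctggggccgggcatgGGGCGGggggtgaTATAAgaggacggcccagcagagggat
KLK5 held TATAA beginning 28 bases before the start, overlapping a match on the other strand at 29, and no GC box. KLK6 held 3 GC boxes and no TATAA. At the printed start KLK7 held both, with TATAA at 27 bases and 2 GC boxes. Listed start 2 of KLK7 held 2 GC boxes and no TATAA. Listed start 3 of KLK7 held 1 GC box, and TATAA at 129 bases. The contrast of KLK7 with KLK5 and KLK6 therefore depends on the start printed. Of the 12 windows listed for 7 of the 10 genes, 4 held TATAA and 6 held GGGCGG. Windows of the same gene can overlap, as those of KLK7 and of KLK10 do, so the same site can count in several windows. Of 35116 promoter windows of the same length, 18.9% held TATAA and 42.6% held GGGCGG. In 0 of the 12 listed windows was TGANTCA found, and 6.57% of all windows held it. AGGTCA was in 1 of the 12, that of SPINK5, where 12.1% of all windows held it. KLK7, KLK10, KLK11 and SPINT1 have more than 1 listed start, and for KLK7 the first listed is printed. KLK8, ST14 and SPINT2 had no window in the table used. The letters TATAA and GGGCGG were chosen for the search after the sequences had been seen, and all matches are descriptions.

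KLK5, the trypsin-like kallikrein that can start the activation cascade in skin, was the most abundant of the 6 and fell in knockout cells. It had 142.8, 143.8 and 132.2 CPM in knockout cells, against 198.2, 200.5 and 206.6 CPM in control cells. All 3 knockout libraries lay below all 3 control libraries. The fitted log2 difference was -0.53 (SE 0.05), with an adjusted p of 2.66e-11 by edgeR, and the 95% interval of the fold ran from 0.646 to 0.743.

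KLK6, a trypsin-like kallikrein known from brain and from epithelia, had 52, 77 and 71 counts in knockout cells, against 197, 276 and 179 in control cells. In CPM these were 4.50, 5.85 and 6.21 in knockout cells, against 14.2, 16.0 and 14.5 in control cells. The groups stood well apart, and the knockout mean was 5.52 ± 0.903 CPM against 14.9 ± 0.950 CPM in control cells (SD, n = 3 each). KLK6 was the only one of the 10 genes changed at least 2-fold, at -1.43 in log2 fold change (SE 0.15) with an adjusted p of 2.47e-10 by edgeR. Of the 12293 genes tested, 878 passed the test with a change of at least 2-fold in either direction. Those that passed and fell at least 2-fold were 5.23% of all tested genes.

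KLK10, whose protein is reported to have little or no protease activity, had 37.5, 41.2 and 42.3 CPM in knockout cells, against 53.7, 53.8 and 54.4 CPM in control cells. The groups did not overlap, and the control libraries were close together. It differed by -0.42 in log2 (SE 0.07), with an adjusted p of 8.94e-06 by edgeR.

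KLK8, also called neuropsin, a trypsin-like kallikrein of the epidermis and the brain, had 45.5, 43.3 and 41.5 CPM in knockout cells, against 55.1, 48.8 and 44.9 CPM in control cells. Here the groups overlapped, since the highest knockout library was above the lowest control library. The log2 fold change of -0.19 (SE 0.08) passed narrowly, with an adjusted p of 0.0361 in edgeR. It did not pass in DESeq2 (adjusted p = 0.128). It also did not pass without knockout replicate 2 (adjusted p = 0.0823 in edgeR), knockout replicate 3 (0.120), control replicate 1 (0.272) or control replicate 2 (0.0614). The value was -0.11 without control replicate 1, the highest of the control libraries.

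KLK7, the chymotrypsin-like kallikrein that KLK5 can activate, had 24.7, 24.7 and 20.7 CPM in knockout cells, against 21.1, 22.8 and 21.2 CPM in control cells. The groups overlapped. Its log2 fold change was 0.11 with a 95% interval from -0.09 to 0.30 (adjusted p = 0.385 in edgeR), so a fold below 0.938 lay outside the interval, while a rise of up to 1.23-fold lay inside it.

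KLK11, a trypsin-like kallikrein of several epithelia, had 63, 77 and 67 counts in knockout cells, against 76, 93 and 45 in control cells. In CPM, the knockout libraries had 5.45, 5.85 and 5.86 and the control libraries 5.47, 5.38 and 3.65. Control replicate 3 stood lowest and the groups overlapped. Its mean CPM was the lowest of the 10 genes in control cells, whereas in knockout cells that of KLK6 was lower (5.72 for KLK11 against 5.52 for KLK6). The log2 fold change was 0.23, and its 95% interval from -0.17 to 0.63 was the widest of the 10 (adjusted p = 0.345 in edgeR). At these counts a fold between 0.889 and 1.55 was not resolved.

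The 6 kallikreins together summed to 260.5, 264.7 and 248.8 CPM in knockout cells, against 347.8, 347.2 and 345.3 CPM in control cells. KLK5 made up 53.1% to 54.8% of that sum in knockout cells and 57.0% to 59.8% in control cells. The share of KLK6 was 1.73% to 2.50% in knockout cells and 4.08% to 4.60% in control cells, and that of KLK7 8.33% to 9.49% in knockout cells and 6.06% to 6.58% in control cells. These are shares of reads, which grow with gene length. The ratio of KLK5 to KLK7 in CPM was 5.99 ± 0.335 in knockout cells and 9.31 ± 0.496 in control cells (SD, n = 3 each), with no overlap between the groups.

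**Figure D2:**
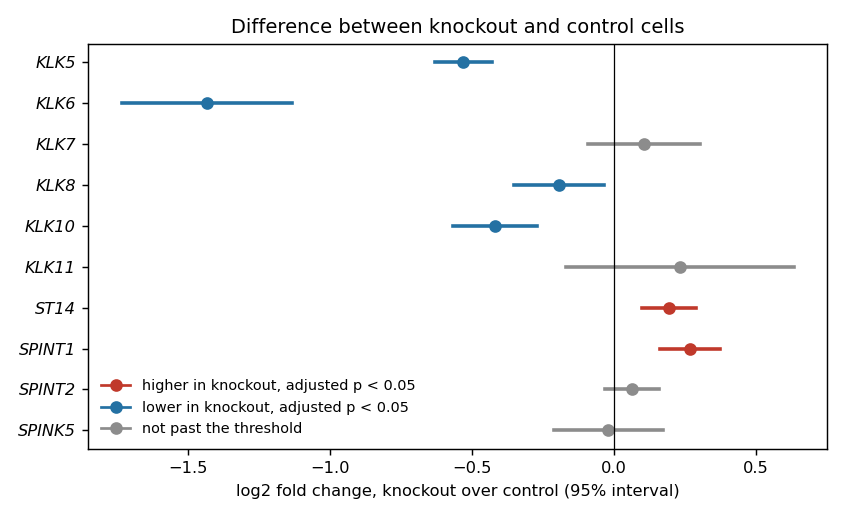
Log2 fold change of each gene, knockout over control, with its 95% interval from edgeR's quasi-likelihood fit. KLK5, KLK6, KLK8 and KLK10 lie below 0, ST14 and SPINT1 lie above 0, and the intervals of the other 4 genes span 0. The interval of KLK6, from -1.73 to -1.13, does not overlap that of any other gene.

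All knockout libraries had more ST14 RNA than any control library. It had 389.5, 414.9 and 376.1 CPM in knockout cells, against 349.9, 345.9 and 336.9 CPM in control cells, the highest read level of the 10 genes. This was a rise of 14.3%, or 0.19 in log2 (SE 0.05), with an adjusted p of 0.000871 by edgeR. The size is small: 43.2% of all tested genes had a smaller absolute log2 fold change.

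SPINT1, the gene of the matriptase inhibitor HAI-1, rose beside it. It had 165.0, 185.8 and 173.8 CPM in knockout cells, against 146.5, 147.5 and 141.8 CPM in control cells, without overlap. The rise was 0.27 in log2 (SE 0.05), with an adjusted p of 4.02e-05 by edgeR. SPINT2, the gene of HAI-2, had 249.0, 251.8 and 242.9 CPM in knockout cells, against 245.0, 228.9 and 238.0 CPM in control cells, with the groups overlapping. Its log2 fold change was 0.06, with a 95% interval from -0.03 to 0.16 (adjusted p = 0.273 in edgeR), and a fold outside 0.978 to 1.12 lay beyond that interval.

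SPINK5 had 23.4, 24.8 and 23.0 CPM in knockout cells, against 25.7, 22.2 and 24.5 CPM in control cells. The libraries of both groups were mixed. The log2 fold change was -0.02, with a 95% interval from -0.21 to 0.17 (adjusted p = 0.880 in edgeR), and 4.82% of all tested genes had a smaller absolute value.

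The balance of proteases and inhibitors was set out as ratios of CPM per library, with no test, since 3 libraries against 3 cannot give a small permutation p. The ratio of ST14 to SPINT1 was 2.36, 2.23 and 2.16 in knockout cells, against 2.39, 2.35 and 2.38 in control cells, and the groups overlapped. The ratio of ST14 to SPINT2 was 1.56, 1.65 and 1.55 in knockout cells, against 1.43, 1.51 and 1.42 in control cells, without overlap. With both inhibitors summed, the ratio was 0.931 ± 0.0245 in knockout cells and 0.900 ± 0.0170 in control cells (SD, n = 3 each), and the groups overlapped. The ratio of KLK5 and KLK7 together to SPINK5 was 7.15, 6.80 and 6.65 in knockout cells, against 8.54, 10.1 and 9.29 in control cells. All 3 knockout values of that ratio lay below the control values, while its inhibitor gene did not pass the test. Most reads of its protease part were those of KLK5, which fell, and KLK7 did not pass either. These are ratios of RNA and say nothing of active enzyme.

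**Figure D3:**
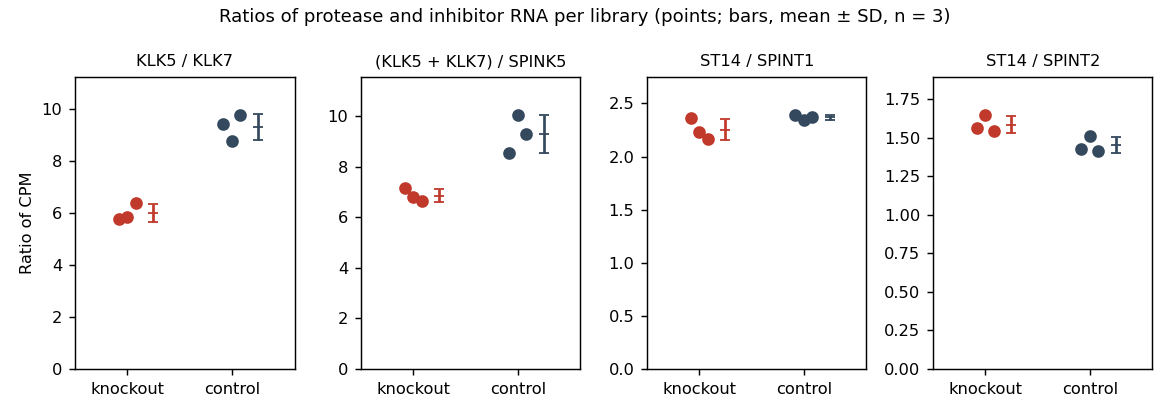
Ratios of CPM in each library, with knockout cells left of control cells, on axes that start at 0. Points are libraries, and the bars beside them are mean ± SD of 3. KLK5 over KLK7, and KLK5 plus KLK7 over SPINK5, were lower in every knockout library, ST14 over SPINT2 was higher, and ST14 over SPINT1 overlapped.

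Levels of different genes were compared as CPM per kilobase of merged exons. In knockout cells the order ran from ST14 (90.5 ± 4.54), KLK5 (84.5 ± 3.87), SPINT1 (49.4 ± 2.94) and SPINT2 (47.7 ± 0.881) through KLK8 (23.3 ± 1.08), KLK10 (10.5 ± 0.654), KLK7 (9.61 ± 0.944) and SPINK5 (5.42 ± 0.209) to KLK6 (2.79 ± 0.457) and KLK11 (1.84 ± 0.0754) CPM per kilobase (SD, n = 3 each). Neighbours within 1 SD of each other in that order were SPINT1 with SPINT2, and KLK10 with KLK7. The libraries of ST14 and KLK5 also overlapped, at 86.5 to 95.4 for ST14 and 80.0 to 87.0 for KLK5. In control cells KLK5 came first, at 122 ± 2.64, and ST14 followed at 79.1 ± 1.54 CPM per kilobase. After them came SPINT2 (45.7 ± 1.56), SPINT1 (41.0 ± 0.855), KLK8 (26.6 ± 2.77), KLK10 (14.0 ± 0.0957) and KLK7 (8.92 ± 0.408), then KLK6 and SPINK5, and KLK11 was last at 1.55 ± 0.329. No neighbours in that order had overlapping libraries. KLK6 stood at 7.54 ± 0.481 in control cells, above SPINK5 at 5.51 ± 0.403, while in knockout cells it stood below SPINK5. With the length of the longest transcript in place of merged exons, the order in control cells was the same. In knockout cells 2 pairs changed places, SPINT2 (65.1) with SPINT1 (57.2) and KLK11 (3.71) with KLK6 (3.23).

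Other genes moved much like these across the 6 libraries, by the root mean square difference of centred log2 CPM. Candidates had a mean of at least 2 on that scale. The nearest to KLK5 was CLIP2 (log2 fold change -0.53, difference 0.0161), to KLK6 EPB41L1 (-1.40, difference 0.0458) and to KLK10 NF1 (-0.41, difference 0.0186). The nearest to ST14 was BICD2 (0.19, difference 0.0177) and to SPINT1 SMUG1 (0.26, difference 0.0132). With 10659 genes to choose from and only 2 groups, near matches describe the size of the change and little else.

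The kallikrein genes span chromosome 19 from 50943303 to 51028039 (GRCh38, GENCODE 29), all 6 on the minus strand. ST14 lies on chromosome 11 from 130159562 to 130210376, SPINT1 on chromosome 15 from 40844018 to 40858207, SPINT2 on chromosome 19 from 38244035 to 38292614 and SPINK5 on chromosome 5 from 148025683 to 148137289, all on the plus strand. Within 1 Mb of the kallikrein span, 18 other genes were tested, of which 1 rose and 3 fell, 22.2% in all where 50.4% of all tested genes were called, with a median log2 fold change of -0.23. The nearest tested genes on the KLK5 side were JOSD2, a deubiquitinase gene (log2 fold change 0.16, adjusted p = 0.332 in edgeR), and EMC10, of an endoplasmic reticulum membrane complex (0.03, adjusted p = 0.796). On the KLK11 side they were CTU1, of a tRNA thiolation enzyme, which rose by 0.62 (SE 0.18, adjusted p = 0.00524), and ETFB, a mitochondrial electron carrier, which fell by 0.23 (SE 0.06, adjusted p = 0.00248). Inside the span the values ran from -1.43 for KLK6 to 0.23 for KLK11. The 10 genes after the span had a median of -0.24, and the 8 before it one of -0.05, and the part of position in the falls of KLK5, KLK6 and KLK10 was not tested.

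**Figure D4:**
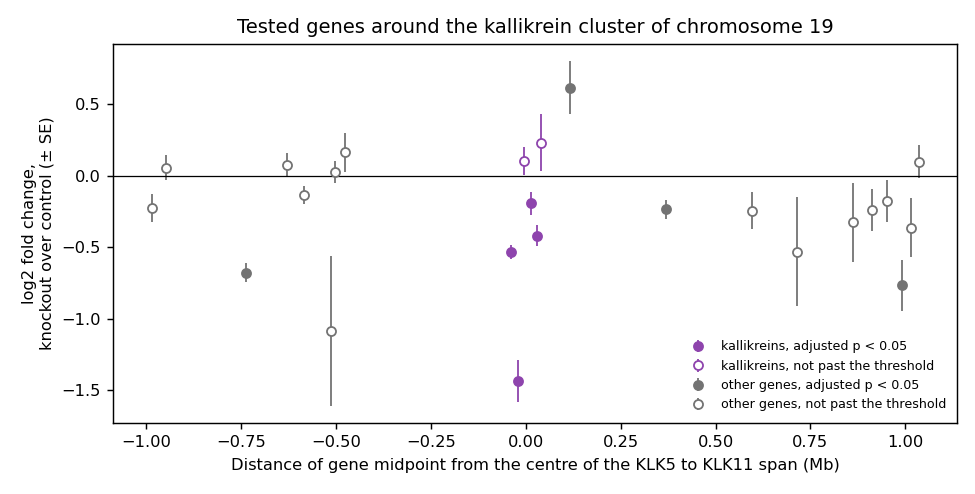
Log2 fold change (± SE), knockout over control, of tested genes against the distance of their midpoint from the centre of the KLK5 to KLK11 span, in megabases. Filled points passed an adjusted p of 0.05. The kallikreins near 0 Mb range from -1.43 to 0.23, and the nearest gene after them, CTU1, lies above 0.

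Annotated genes on the opposite strand overlap 7 of the 10 genes, among them 5 of the kallikreins (all but KLK11). The libraries were stranded, but no source used here gives the strand setting of the counting. It is therefore unknown whether reads of such partners were counted with KLK5, KLK6, KLK7, KLK8, KLK10, SPINT1 and SPINT2. Of those partners 2 were in the table, SPINT1-AS1 and PPP1R14A, and both had 0 counts in every library. Same-strand annotations overlap KLK6, KLK8 and SPINT2, and strand cannot separate reads in those overlaps.

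The remaining kallikreins were at or near background. Of 10 listed, including the plasma kallikrein gene KLKB1, 0 passed the filter on low counts. KLK13 had 9, 10 and 10 counts in knockout cells and 11, 11 and 9 in control cells. KLK9 had 15, 5 and 6 counts in knockout cells and 17, 11 and 1 in control cells. KLK14, a trypsin-like kallikrein of the stratum corneum, had 1, 0 and 1 in knockout cells and 0, 4 and 0 in control cells. KLK2, KLK3 and KLK12 had 0 of 36848821 counts in knockout cells and 0 of 42751845 in control cells, which allows up to 0.0814 CPM in knockout cells and 0.0702 CPM in control cells (3 counts per group, counting error only).

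Among 20 other membrane and epithelial serine protease genes, 6 were tested, of which 1 rose, 3 fell and 2 did not pass (median log2 fold change -0.09). Of all tested genes, 24.6% rose, 25.8% fell and 50.4% were called in either direction. PRSS8, the gene of prostasin, the downstream partner of matriptase, fell while ST14 rose. It had 12.4, 13.1 and 10.8 CPM in knockout cells, against 24.7, 22.8 and 23.9 CPM in control cells, with a log2 fold change of -0.97 (SE 0.11, adjusted p = 2.12e-09 in edgeR). TMPRSS4, a transmembrane serine protease of epithelial cells, fell by 0.26 (SE 0.06, adjusted p = 0.000283). TMPRSS11E, also called DESC1, was at -0.50 in log2 (adjusted p = 0.0404 in edgeR), which did not pass in DESeq2 (0.136), in limma-voom (0.0591) or without control replicate 3 (-0.34, 0.241), and also without control replicate 2 (0.0728) or any of knockout replicates 1 (0.0982), 2 (0.0929) and 3 (0.0510). PRSS22, which encodes an epithelial tryptase, rose by 1.07 (SE 0.30, adjusted p = 0.00353) at 46, 37 and 31 counts in knockout cells, against 26, 21 and 18 in control cells.

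Of 21 other protease inhibitor genes of the epidermis, 7 were tested, of which 6 rose, 0 fell and 1 did not pass (median 1.07), where 24.6% of all tested genes rose. Of these, 2 (PI3 and A2ML1) passed the low-count filter through the knockout libraries alone, so the list's count and median lean upward by construction. CST6 of this list had 2, 2 and 3 counts in knockout cells, against 14, 13 and 7 in control cells, and did not pass the filter. With no filter, 6 of the list rose and 1 fell, as also without knockout replicate 1 or 3. Without control replicate 3, 5 rose and 1 fell. SLPI, a secreted inhibitor of neutrophil elastase that also inhibits KLK7, had 36.2, 36.6 and 33.5 CPM in knockout cells, against 11.2, 12.2 and 10.3 CPM in control cells. It rose by 1.65 in log2 (SE 0.10), more than any inhibitor among the 10 genes, with an adjusted p of 1.42e-16 by edgeR. CSTA, the cysteine protease inhibitor cystatin A, rose by 0.87 (SE 0.07, adjusted p = 1.65e-13). WFDC2, of the same whey acidic protein family as SLPI, rose by 1.07 (SE 0.19, adjusted p = 6.07e-05). PI3, the gene of elafin, had 22, 25 and 13 counts in knockout cells, against 2, 6 and 0 in control cells (log2 fold change 3.12, SE 0.56, adjusted p = 1.48e-05). With so few control counts the size is loose, at 4.27 without control replicate 2 and 2.65 without control replicate 3.

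**Figure D5:**
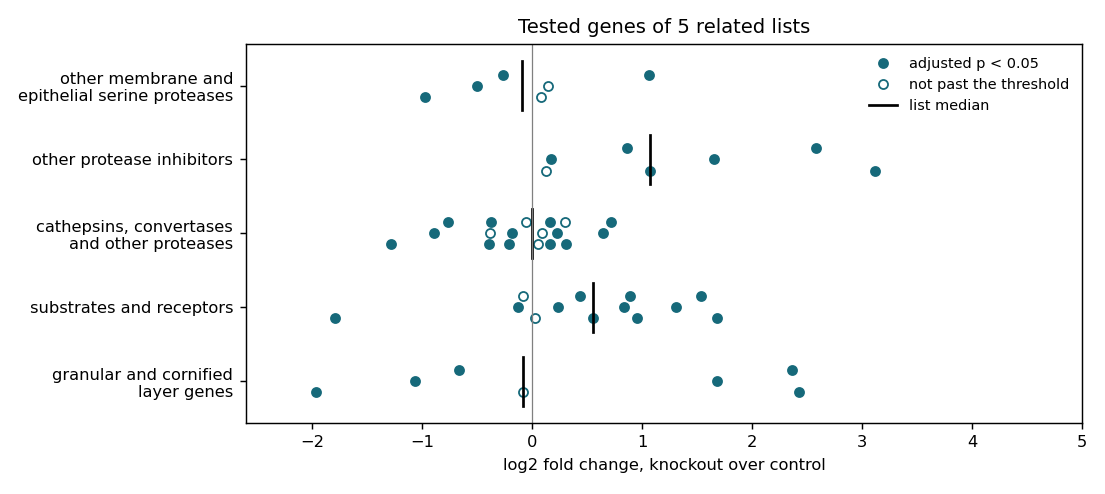
Log2 fold change, knockout over control, of each tested gene in 5 lists of related genes. Filled points passed an adjusted p of 0.05, open points did not, and the black line is the list median, from -0.09 for other serine proteases to 1.07 for other inhibitors.

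A further list held cathepsins, calpains, proprotein convertases and other proteases of mixed catalytic type. Of 20 listed, 18 were tested, 6 rose, 7 fell and 5 did not pass (median 0.00), so that 72.2% were called where 50.4% of all tested genes were. PCSK5, a proprotein convertase of the subtilisin-type serine proteases, had 42.8, 38.6 and 42.0 CPM in knockout cells, against 96.7, 97.8 and 104.4 CPM in control cells (log2 fold change -1.28, SE 0.07, adjusted p = 1.17e-18 in edgeR). The lysosomal cysteine protease gene CTSB fell by 0.89 (SE 0.05). CTSC, which activates serine proteases of immune cells, rose by 0.64 (SE 0.05), and CTSL by 0.72 (SE 0.08). Smaller rises were seen for PCSK7 (0.31) and FURIN (0.22), both convertases, CAPN2 (0.16), a calpain, and CTSA (0.17), a serine carboxypeptidase. CTSA did not pass without control replicate 1 (adjusted p = 0.0629 in edgeR). The other genes of the list that fell were BLMH (-0.76), CTSV (-0.39), CTSH (-0.37), CTSD (-0.21) and BMP1 (-0.18).

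Of 22 listed genes of substrates and receptors of these proteases, 13 were tested, 9 rose, 2 fell and 2 did not pass (median 0.55), where 24.6% of all tested genes rose and 25.8% fell, and 1 of those that rose, CDSN, passed the filter through the knockout libraries alone. PLAU, urokinase, whose precursor matriptase can activate, had 177.9, 201.0 and 165.2 CPM in knockout cells, against 76.9, 68.6 and 74.9 CPM in control cells (log2 fold change 1.31, SE 0.06, adjusted p = 8.24e-15 in edgeR). Its receptor gene PLAUR rose by 1.54 (SE 0.10). CDCP1, a cell surface protein cut by matriptase, rose by 0.84 (SE 0.06). SCNN1A, the alpha subunit of the epithelial sodium channel, which prostasin can activate, fell. It had 8.65, 9.19 and 11.0 CPM in knockout cells, against 33.5, 32.8 and 33.6 CPM in control cells (log2 fold change -1.79, SE 0.11, adjusted p = 8.28e-17). DSG2, a desmosomal cadherin, was at -0.13 in log2 (adjusted p = 0.0364 in edgeR, 0.0596 in DESeq2). It did not pass without knockout replicate 1 (-0.08 in log2, 0.228), knockout replicate 2 (0.130), control replicate 2 (0.156) or control replicate 3 (0.160). The receptor genes F2RL1 and F2R were chosen after their values were seen. F2RL1, the receptor PAR2 that KLK5 and matriptase can activate, had 126.0 ± 2.70 CPM in knockout cells and 85.9 ± 0.926 CPM in control cells (SD, n = 3 each, log2 fold change 0.55), and F2R, the thrombin receptor, had a log2 fold change of 0.89.

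Genes of the granular and cornified layers, where kallikreins act, were mostly below the filter on low counts. Of 21 listed names 7 were tested, 3 rose, 3 fell and 1 did not pass (median -0.08), where 24.6% of all tested genes rose and 25.8% fell. All 3 that rose (SPRR1B, SPRR2A and CDSN) passed the filter through the knockout libraries alone. IVL, the gene of the envelope precursor involucrin, had 11.3, 10.3 and 10.1 CPM in knockout cells, against 36.7, 45.6 and 40.8 CPM in control cells (log2 fold change -1.96, SE 0.10, adjusted p = 2.46e-18 in edgeR). KRT10, a keratin of differentiating layers, fell by 1.06 (SE 0.14), and TGM1, the crosslinking enzyme transglutaminase 1, by 0.66 (SE 0.14). SPRR1B, of the small proline-rich proteins, had 31, 26 and 28 counts in knockout cells, against 6, 11 and 2 in control cells (log2 fold change 2.43, SE 0.42). The kallikrein targets DSG1 and DSC1 of the corneodesmosome did not pass the filter, and FLG, the gene of filaggrin, was at -0.08 in log2 (adjusted p = 0.436). FLG, CDSN, DSG1 and DSC1 stand in both lists.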

How the data were processed

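RNA was measured in 6 libraries. Per the labels' protocols, total RNA was made into stranded total-RNA libraries. The deposited table holds raw counts of reads for each gene. The submitters' processing notes name GRCh38; the sources used here give no aligner, counter or strand setting. Each of the 6 columns carries a name that fits 1 sample. Of 46287 rows, 16383 had a count. Library totals ran from 11504473 to 16928201. Replicates of 1 group differed beyond counting error (chi-square divided by its degrees of freedom was 2.65 to 4.49, for summed counts of 20 or more), so each was kept.

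The test was that of edgeR 4.0.16 (R 4.3.3): filterByExpr (minimum count 10, minimum total count 15), TMM scaling and the robust quasi-likelihood F test, two-sided, with Benjamini-Hochberg adjustment over all 12293 genes tested and a threshold of 0.05. Log2 fold changes set knockout over control, with a prior count of 0.125. Each SE is the size of the change divided by the root of its F value, and the 95% interval uses the fit's degrees of freedom. CPM values were computed from the deposited counts with TMM-adjusted library sizes. Lengths and positions came from GENCODE 29 on GRCh38. The script was tested on simulated data.

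The 10 genes, the lists and the rule for named genes were chosen with earlier results of these data known. Named genes are the 10, SDR42E1, up to 4 members of each other list with the smallest adjusted p plus called members against the list's main direction, the nearest gene in pattern, and the 2 nearest tested genes on each side of the kallikreins. Others were chosen after their values were seen. The alternatives were DESeq2 1.42.0, limma-voom (limma 3.58.1), RLE and upper-quartile scaling, other filters on low counts, the replicate number as a block, leaving out each library, and another gene length.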

Additional observations from a re-analysis of the deposited data

How the results depend on the processing

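Of the 10 genes, 9 kept their side of the threshold under each of the 13 settings, and KLK8 was the exception. KLK5 ranged from -0.56 to -0.49 in log2 fold change, KLK6 from -1.52 to -1.30, KLK10 from -0.45 to -0.37, ST14 from 0.16 to 0.23 and SPINT1 from 0.22 to 0.31. Values of SPINK5, which did not pass under any setting, ran from -0.08 to 0.03. The count of called genes among the 10 was 5 or 6 throughout. Of 50 genes followed, 44 kept their call under every setting and 6 crossed the threshold under at least 1. These 6 were KLK8, TMPRSS11E, CTSA, DSG2, RPL28 and XBP1, the last 2 being the nearest genes in pattern to KLK7 and KLK8. Direction reversed in 0 genes, counting only those that passed in the main fit or under the alternative setting. Genes that did not pass could change sign, as SPINK5 did. Over all genes, 6197 were called (48.8% higher), against 5315 in DESeq2, 6149 with upper-quartile scaling (43.4% higher) and 5338 to 6074 without 1 library. Deviations from the group means were uncorrelated between libraries of the same number (0.02, -0.09 and -0.01). With 3 libraries per group, this cannot show whether the libraries were paired, and the main fit used no block. The replicate block gave 6425 called genes and the same count of 6 among the 10. Genes called around the kallikreins numbered 4 to 6. Precision for KLK11 and KLK6 is limited by counts of under 100 in some libraries. Per-length levels depend on the gene length used, since 19 of 20 moved by more than 1 SD with the longest transcript.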
